A study of Homo sapiens with 12 samples.

Results

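Fatty acid oxidation and the genes that peroxisome proliferator-activated receptors (PPARs) switch on were followed through 8 transcripts: CPT1A, CPT2, ACADVL, ACADM, HADHA, PDK4, ANGPTL4 and PLIN2. The 8 genes were taken by symbol from the 19251 genes listed in every library. They were chosen with earlier results of these data known. All 8 passed the filter on low values that left 17616 genes for testing. RNA sequencing had been done on CAOV3, labelled a high grade serous ovarian cancer line, and on TOV21G, labelled a clear cell line, both of genotype WT. In each line 3 libraries came from untreated cells and 3 from cells kept for 16 h with 10% ascites, abdominal fluid that builds up in patients with ovarian cancer (150 µL in 1.5 mL), and all 4 groups grew in DMEM with 10% fetal bovine serum and antibiotics. The labels describe no addition to the control wells, do not say from how many patients the ascites came, and do not say whether replicates were separate cultures, so the p-values measure the spread between libraries, which may be technical.

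Long-chain fatty acids enter mitochondria through the carnitine shuttle and are then shortened by acyl-CoA dehydrogenases and the trifunctional protein, a cycle called beta-oxidation. PPARs are nuclear receptors that bind fatty acids and, as partners of retinoid X receptors, raise the transcription of many genes of fatty acid handling. The ascites of ovarian cancer carries lipids as well as cytokines and growth factors, and fatty acid uptake from the surroundings has been described in metastatic ovarian cancer cells.

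Values are the authors' normalised read counts per gene, given as mean ± SD over 3 libraries. Changes are log2 fold changes of the value plus 1 with their standard error (SE), and a gene was called at a limma adjusted p under 0.05, with the adjustment made over all 17616 genes. The libraries held 26697609 to 34491304 reads. Mitochondrial transcripts took 2.48% to 3.35% of the reads in CAOV3 and 1.49% to 2.71% in TOV21G. The epithelial markers (5 of 5) had a mean of at least 10 in all 4 groups. Their sum was 131717 to 132806 in CAOV3 controls and 11027 to 12423 in TOV21G controls, where CDH1 had only 13.3 ± 6.07. Of the fibroblast markers, LUM stood at 4196 ± 366 in CAOV3 controls and had no read in TOV21G controls. COL1A2 stood at 2.46 ± 0.442 and 10854 ± 308 in these groups, and DCN and FAP were not among the listed genes. Of 8 leukocyte markers, 6 (PTPRC, CD163, CD3E, CD3D, MS4A1 and TYROBP) were not among the listed genes. The other two were at low levels in CAOV3, CD14 at 81.3 ± 9.03 in control and 74.8 ± 9.66 in ascites libraries and LYZ at 42.0 ± 10.6 and 35.1 ± 4.17. In TOV21G CD14 was at 11.02 ± 2.38 and 15.1 ± 4.64, and LYZ had no read.

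Of the 8 transcripts, ascites moved ANGPTL4 past the test, in CAOV3 alone, and 7 were not called in either line. In CAOV3 1 of 8 was called, ANGPTL4, which was higher after ascites, where 1.73% of all genes tested were called, 0.636% higher and 1.1% lower. In TOV21G 0 of 8 were called by limma, and 0 by edgeR or DESeq2, where limma called 0.409% of all genes. There 0 of the 8 reached an unadjusted p under 0.05, as 9.17% of all genes did, and the groups of 0 of the 8 stood apart, as those of 11.1% of all genes did. The median log2 fold change of the 8 was -0.01 in CAOV3, against 0.00 over all genes tested, and 0.00 in TOV21G, against -0.02. The controls of the lines, by contrast, differed in all 8 genes, in a comparison that called 82.2% of all genes, 40.8% higher and 41.4% lower in TOV21G.

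**Figure D1:**
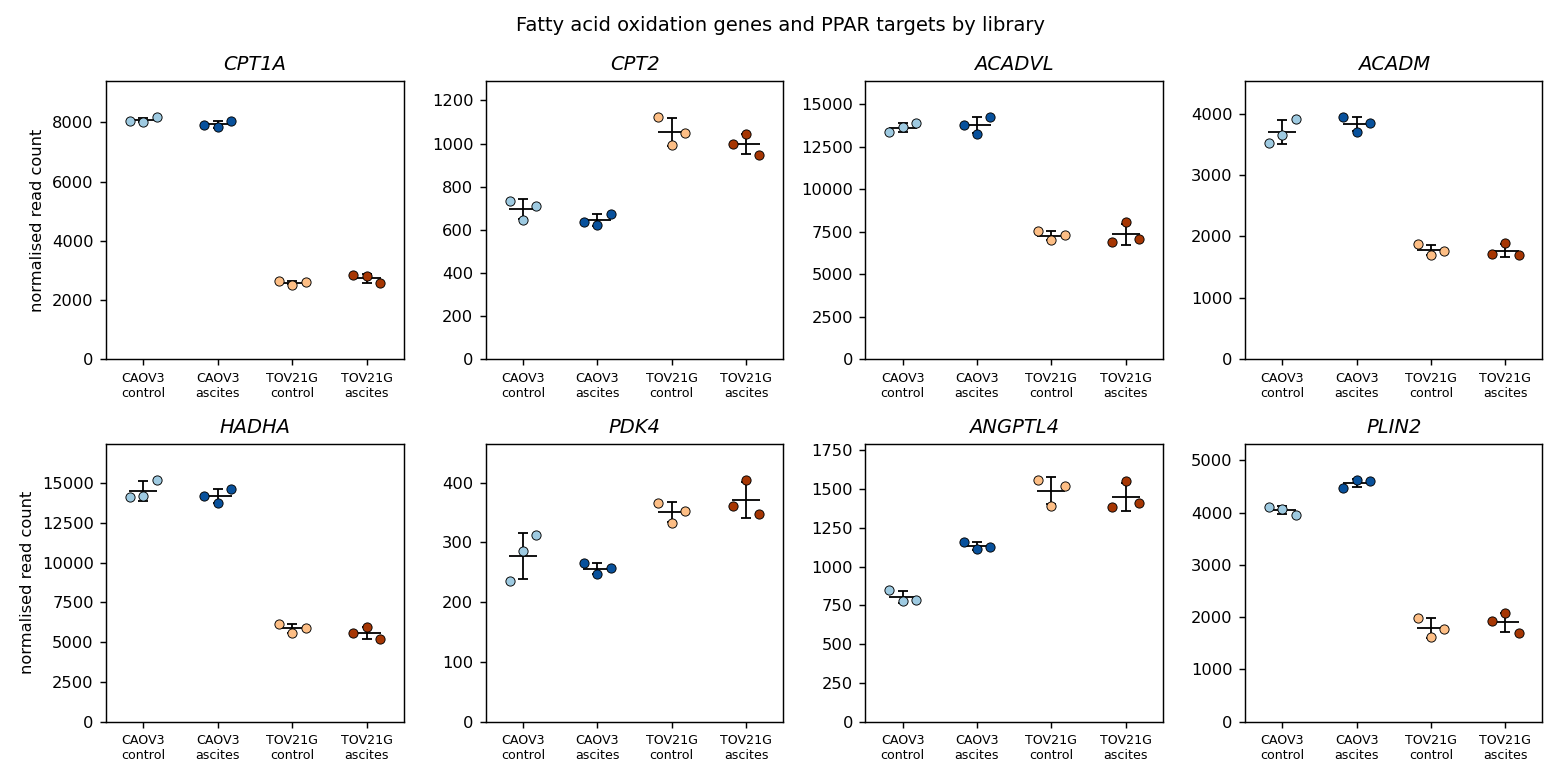
Normalised read count (vertical axes, from 0) of the 8 genes in each of the 12 libraries; points are libraries, horizontal marks the mean and bars the SD of 3 libraries. The ANGPTL4 panel shows the 3 CAOV3 ascites libraries (1113 to 1160) above the 3 controls (776 to 847), and in 5 panels both CAOV3 groups lie above both TOV21G groups.

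ANGPTL4 encodes a secreted inhibitor of lipoprotein lipase, the enzyme that frees fatty acids from circulating triglyceride, and is a PPAR target that hypoxia and glucocorticoids also raise. PLIN2 encodes perilipin 2, which coats lipid droplets. In these genes all 3 CAOV3 ascites libraries lay above all 3 controls, which was so for 11.4% of all genes tested. The stretches upstream of their RefSeq starts are shown for this reason, 5′ to 3′ on the strand of the gene and cut where a GENCODE release 29 exon begins. Both stretches lie inside the span of their gene in that release. Capitals mark ACGTG, the core of the hypoxia response element, on either strand (GRCh38.p14; ANGPTL4 is chr19:8363905-8364150 on the plus strand and PLIN2 is chr9:19127577-19127742 on the minus strand).
ANGPTL4: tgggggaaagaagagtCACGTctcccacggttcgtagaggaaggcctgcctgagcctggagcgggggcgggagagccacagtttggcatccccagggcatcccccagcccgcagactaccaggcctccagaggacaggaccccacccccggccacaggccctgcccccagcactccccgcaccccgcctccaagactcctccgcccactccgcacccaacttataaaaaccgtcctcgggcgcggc
PLIN2: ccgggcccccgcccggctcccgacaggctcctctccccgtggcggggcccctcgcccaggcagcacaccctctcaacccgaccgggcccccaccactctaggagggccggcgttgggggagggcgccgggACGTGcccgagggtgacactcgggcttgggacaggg

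RefSeq promoter windows were found for 8 of 8 genes, 9 windows in all because ACADVL has a pair. In the 250 bases before the start, ACGTG on either strand was present in 3 of the 9 windows (ANGPTL4, PLIN2 and 1 of ACADVL) and in 18.5% of all 35116 windows. The cut left 84 of these bases out of the printed PLIN2 stretch. They also hold ACGTG, at -68 to -64 from the start on the plus strand of the window and -69 to -65 on the minus strand. The nuclear receptor half-site AGGTCA, on either strand, was in 0 of the 9 and in 12.1% of all. The PPAR direct repeat, a pair of half-sites on 1 strand with a single free base between them, was in 0 of the 9 and in 0.0171% of all. These are exact matches of letters in a short window. Elements that differ from these letters were not searched for, and known PPAR elements can lie outside the window. With the direct repeat so rare among all windows, 0 of the 9 cannot tell these genes from others.

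In untreated CAOV3, ANGPTL4 (ENSG00000167772, chromosome 19, 8363289 to 8374373 in GENCODE release 29) had values of 847, 776 and 787, and after ascites 1160, 1113 and 1123. The groups did not overlap, and the lowest ascites library stood well above the highest control. The group means were 803 ± 38.2 and 1132 ± 24.3, so ANGPTL4 rose 1.41-fold, or by 0.50 on the log2 scale (SE 0.06, limma adjusted p = 0.000509). The call was kept in all 23 alternative analyses, with adjusted p up to 0.0189. In bulk libraries a change in some of the cells cannot be told apart from a change in all of them. RAB11B-AS1, which overlaps ANGPTL4 on the opposite strand, had only 57.8 ± 0.351 in control and 60.04 ± 12.4 in ascites libraries of CAOV3.

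TOV21G began from a higher ANGPTL4 level and did not show this difference. Its control libraries had 1558, 1389 and 1516 and its ascites libraries 1381, 1549 and 1410, so the groups overlapped. The log2 fold change was -0.04, with a 95% confidence interval of -0.16 to 0.08. The difference between the responses was -0.54 on the log2 scale (SE 0.08, limma adjusted p = 0.0104), in a test that called 0.545% of all genes. ANGPTL4 was the only one of the 8 genes called in that test, and with the replicate number as a block its adjusted p was 0.131.

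Markers of the other inputs to ANGPTL4 were read beside it in CAOV3. Of 9 hypoxia markers 1 was called higher, VEGFA, as 0.636% of all genes tested were, and 8 of 9 had a positive log2 fold change. VEGFA, the vascular growth factor, went from 988 ± 37.9 to 1126 ± 15.9 (log2 0.19, SE 0.04, limma adjusted p = 0.0252). VEGFA lost the call in 6 of the 12 fits that each left out 1 library, those without CAOV3 control replicate 1 or 2, any of the CAOV3 ascites replicates or TOV21G control replicate 3, with log2 fold changes of 0.16 to 0.22 over the 12. Of 6 glucocorticoid markers 0 were called by limma, edgeR or DESeq2, and 3 had a positive log2 fold change. An unadjusted p under 0.05 in limma was reached by 2 of the 6, as by 12.9% of all genes. The ascites libraries lay above all controls in 1 marker and below them in 2, as for 11.4% and 12.8% of all genes. With CAOV3 fitted alone, limma called TSC22D3 and KLF9 lower (log2 -0.28 in both) and the hypoxia markers VEGFA and SLC2A1 higher (0.19 and 0.18). That fit called 8.19% of 15808 genes. The part of either signal in the ANGPTL4 difference was not tested.

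PLIN2 (ENSG00000147872, chromosome 9, 19108375 to 19149290) was the other member with a shift in CAOV3. Its values were 4103, 4078 and 3957 in the controls and 4475, 4624 and 4608 after ascites, so the groups did not overlap. The log2 fold change of 0.18 (SE 0.07, 95% interval 0.02 to 0.33) had an unadjusted p of 0.0325 in limma, as 12.9% of all genes reached a p under 0.05, and an adjusted p of 0.326. With CAOV3 fitted alone, so that the spread came from that line only, its limma adjusted p was 0.00162 and 8.19% of 15808 genes were called.

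The TOV21G libraries varied more in PLIN2 than those of CAOV3. Values were 1989, 1624 and 1768 in the controls and 1928, 2074 and 1704 after ascites, so the groups overlapped. The log2 fold change was 0.09 (95% interval -0.07 to 0.24). The PLIN2 response did not differ between lines beyond its error (-0.09, 95% interval -0.31 to 0.13).

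**Figure D2:**
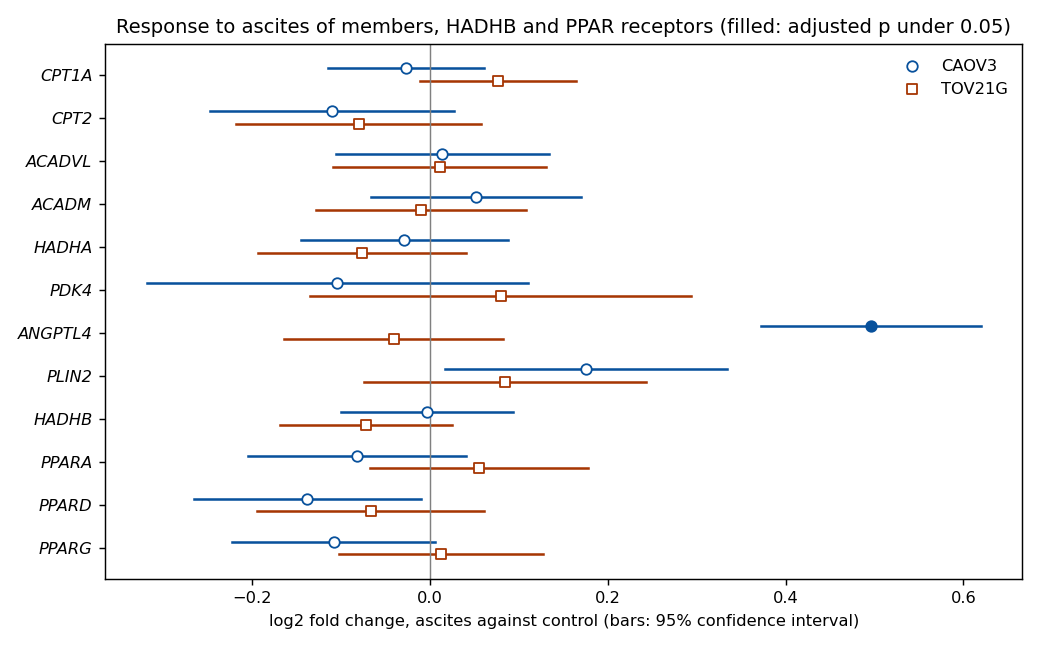
Log2 fold change of ascites against control (horizontal axis) for the 8 genes, HADHB and the 3 PPAR genes in CAOV3 (circles) and TOV21G (squares), with 95% confidence intervals and filled symbols for an adjusted p under 0.05. Only ANGPTL4 in CAOV3 (0.50) is filled, and the other points lie between -0.14 and 0.18.

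CPT1A and CPT2 are the carnitine palmitoyltransferases of the outer and inner mitochondrial membrane, and CPT1A is the rate-limiting entry step that malonyl-CoA inhibits. CPT1A (ENSG00000110090, chromosome 11, 68754620 to 68844410) had 8061, 8020 and 8171 in CAOV3 controls and 7902, 7843 and 8060 after ascites, a log2 fold change of -0.03 (95% interval -0.11 to 0.06). In TOV21G it had 2642, 2518 and 2600 in the controls and 2824, 2802 and 2563 after ascites, a log2 fold change of 0.08 (-0.01 to 0.16). In that line 2 of the 3 ascites libraries lay above every control and replicate 3 did not. CPT2 (ENSG00000157184, chromosome 1, 53196429 to 53214197) changed by -0.11 in CAOV3 (697 ± 46.5 against 645 ± 26.1, interval -0.25 to 0.03) and by -0.08 in TOV21G (interval -0.22 to 0.06), with overlapping groups in both. CPT2 overlaps C1orf123 and AL606760.2 on the opposite strand, so its counts are uncertain to the extent that reads were shared. Over all 8 genes of the carnitine shuttle list, 0 were called by limma, edgeR or DESeq2 in either line. In CAOV3 and TOV21G 0 and 1 reached an unadjusted p under 0.05 in limma, as 12.9% and 9.17% of all genes did.

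The dehydrogenases ACADVL and ACADM open the cycle for very long and medium chains, and HADHA is the alpha subunit of the trifunctional protein that carries out its later steps on long chains. In CAOV3, HADHA (ENSG00000084754, chromosome 2, 26190635 to 26244726) had 14111, 14184 and 15201 in the controls and 14216, 13774 and 14652 after ascites. In TOV21G the values were 6142, 5582 and 5918, and 5577, 5946 and 5225. The groups overlapped in both lines, with log2 fold changes of -0.03 (-0.14 to 0.09) and -0.08 (-0.19 to 0.04). Its partner HADHB, the beta subunit, moved by 0.00 and -0.07 and was not called in either line. Both lie on chromosome 2 and the RefSeq starts of HADHA and HADHB lie 307 bases apart in opposite directions and the genes overlap, so without strand information reads in the overlap cannot be assigned with certainty.

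ACADVL (ENSG00000072778, chromosome 17, 7217125 to 7225273) showed log2 fold changes of 0.01 in both lines, with means of 13631 ± 263 and 13768 ± 480 in CAOV3 and 7271 ± 270 and 7343 ± 617 in TOV21G. ACADM (ENSG00000117054, chromosome 1, 75724347 to 75787575) gave 0.05 and -0.01, with means of 3700 ± 193 and 3834 ± 119 in CAOV3 and 1780 ± 87.6 and 1769 ± 111 in TOV21G. The 95% intervals of both genes in both lines lay between -0.13 and 0.17. Both genes overlap others (DLG4 with ACADVL, RABGGTB with ACADM), so their counts are uncertain to the extent that reads were shared. Of the 18 tested genes of mitochondrial beta-oxidation, which include these 3, 0 were called by limma, edgeR or DESeq2 in either line, and 0 and 1 had an unadjusted p under 0.05. In the peroxisomal branch of the pathway 0 of 13 were called by limma in either line, with 3 and 2 at an unadjusted p under 0.05. For these, edgeR and DESeq2 each called 1 in CAOV3 and 0 in TOV21G. In CAOV3 1 of the 13 had a positive log2 fold change, and in TOV21G 0 did. Their medians were -0.08 and -0.06, against -0.002 and -0.02 over all genes tested. Of all genes tested, 12.9% in CAOV3 and 9.17% in TOV21G had an unadjusted p under 0.05 in limma.

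PDK4 encodes a kinase that shuts off pyruvate dehydrogenase and so favours fatty acids over glucose as fuel, and it is a standard readout of PPAR activity. It was the least abundant of the 8 per kilobase in every group. In CAOV3, PDK4 (ENSG00000004799, chromosome 7, 95583499 to 95596491) had 235, 285 and 312 in the controls and 265, 246 and 258 after ascites, so that the ascites libraries fell inside the range of the controls. The TOV21G values were 366, 332 and 353, and 361, 404 and 347. Log2 fold changes were -0.10 (-0.32 to 0.11) and 0.08 (-0.13 to 0.29), and the width of these intervals was the largest among the 8 genes.

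The PPAR genes themselves were not called in either line. PPARD, the widely expressed receptor, had a log2 fold change of -0.14 in CAOV3 (404 ± 17.6 to 368 ± 18.9, limma adjusted p = 0.342), PPARG, the receptor best known from fat cells, -0.11 (3229 ± 123 to 2997 ± 119) and PPARA, the main receptor of liver and heart, -0.08 (234 ± 2.4 to 221 ± 7.97). In all 3 the CAOV3 groups did not overlap and the ascites libraries were the lower ones, as for 12.8% of all genes tested. Of the 12 tested receptors, partners and coactivators 7 had all ascites libraries below all controls in CAOV3 and 11 of 12 had a negative log2 fold change, with a median of -0.09, but 0 were called by limma, edgeR or DESeq2 and 2 reached an unadjusted p under 0.05. In TOV21G 7 of the 12 were positive and 0 were called by these 3 tools, with 2 at an unadjusted p under 0.05. Such a p in limma was reached by 12.9% of all genes in CAOV3 and 9.17% in TOV21G.

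Of 33 known PPAR targets tested in CAOV3, ANGPTL4 rose and 32 were not called by limma, with 11 positive and a median log2 fold change of -0.03, against 0.00 over all genes tested. There edgeR called 1 and DESeq2 2 of the 33, and 7 had an unadjusted p under 0.05 in limma, as 12.9% of all genes did. All ascites libraries lay above all controls in 5 of the 33 and below them in 8, as for 11.4% and 12.8% of all genes. With CAOV3 fitted alone, limma called AQP3 (log2 0.50) and TXNIP (0.16) higher, besides ANGPTL4 and PLIN2. It called FABP1 (-0.56) and FABP4 (-0.18) lower, in a fit that called 8.19% of 15808 genes. In TOV21G 0 of 33 were called by limma, and 1 by edgeR and 1 by DESeq2. In that line 17 were positive and 2 had an unadjusted p under 0.05 in limma, as 9.17% of all genes did. CD36, CYP4A11 and FGF21, also commonly used PPAR targets, were not among the listed genes and were not analysed here.

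Outside the 8 genes, 128 further genes of the lists were tested. In CAOV3, where 1.73% of all genes were called (0.636% higher and 1.1% lower), 7 of the 128 were called, 3 higher and 4 lower. Leaving out any 1 CAOV3 library lowered this count to 3 or 4. Lipid droplet genes gave 1 in each direction. PLIN3, a perilipin that binds newly forming droplets, had 3255, 3365 and 3304 in the controls and 4016, 4080 and 4141 after ascites (log2 0.30, SE 0.05, limma adjusted p = 0.0094). MGLL, which cleaves the last fatty acid from glycerol, went from 3671 ± 84.2 to 2898 ± 42.8 (log2 -0.34, SE 0.05, limma adjusted p = 0.00426). The PLIN3 libraries stood apart without overlap in CAOV3, whereas in TOV21G its groups overlapped (4105 ± 190 and 3887 ± 315). The test of the difference between lines called PLIN3 (-0.38, SE 0.07, limma adjusted p = 0.0394), and it lost that call in 10 of 12 fits that each left out 1 library (values from -0.45 to -0.34), all but those without TOV21G control replicate 2 or TOV21G ascites replicate 2.

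**Figure D3:**
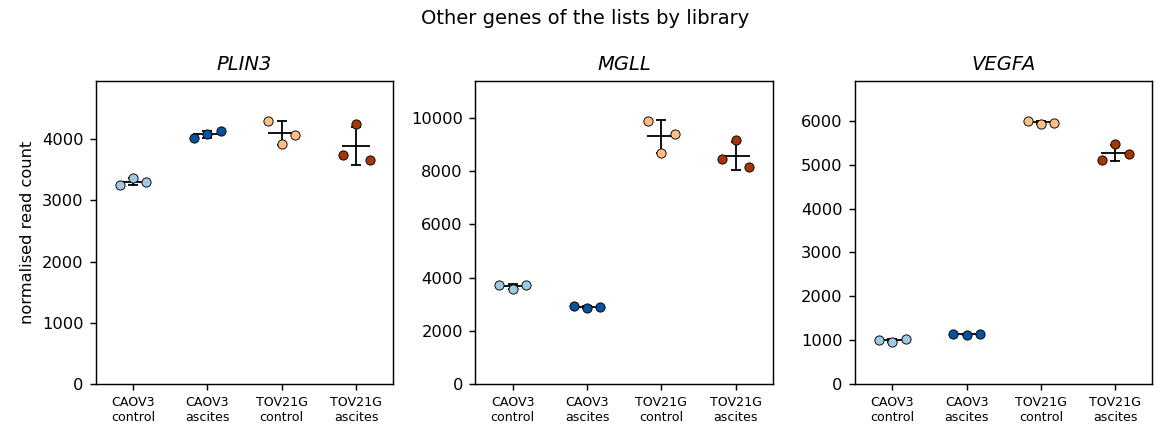
Normalised read count (vertical axes, from 0) of PLIN3, MGLL and VEGFA by library, with mean and SD of 3 libraries per group. PLIN3 rises from a mean of 3308 to 4079 in CAOV3, while its TOV21G groups overlap, and MGLL falls in CAOV3 from 3671 to 2898.

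In the switch between glucose and fat, PDP1, the phosphatase that reactivates pyruvate dehydrogenase against the PDK kinases, rose from 2504 ± 74.5 to 2983 ± 108 in CAOV3 (log2 0.25, SE 0.05, limma adjusted p = 0.0284). ACACB, whose product malonyl-CoA inhibits CPT1A, fell by 0.36 on the log2 scale (424 ± 25.1 to 331 ± 5.41, adjusted p = 0.0266). ACSL3, which activates fatty acids for droplet lipids, fell by 0.29 (5800 ± 305 to 4756 ± 95.2, adjusted p = 0.00805). PDP1 lost its call without CAOV3 control replicate 1, 2 or 3 or ascites replicate 1 or 2 (log2 0.23 to 0.28 over the fits that left out 1 library). ACACB lost it without control replicate 1 or 3 or any of the ascites replicates (-0.40 to -0.31), and ACSL3 kept its call throughout these fits.

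Among the genes of lipoprotein lipase and its regulators, the list that holds ANGPTL4, LIPG was called lower in CAOV3. LIPG, the endothelial lipase, went from 1062 ± 8.73 to 780 ± 35.5 (log2 -0.44, SE 0.09, limma adjusted p = 0.0227) and lost the call in each of the 6 fits that left out a CAOV3 library (log2 -0.48 to -0.42). LPL, the lipase itself, was not among the listed genes.

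In TOV21G 2 of the 128 were called, both lower, where 0.267% of all genes were, and both were also called in CAOV3. The count was 5 without TOV21G ascites replicate 2, 3 without TOV21G control replicate 2, 1 in 8 of the other fits that left out 1 library and 2 in the rest. It was 0 with TOV21G fitted alone and 0 with the replicate number as a block, so LIPG and ACSL3 were not called there. LIPG had 97.6, 88.1 and 80.8 in the controls and 56.3, 48.7 and 57.3 after ascites, without overlap (log2 -0.70, SE 0.09, limma adjusted p = 0.00384). ACSL3 went from 2746 ± 120 to 2293 ± 105 (log2 -0.26, SE 0.05, adjusted p = 0.0378), and it lost the call without CAOV3 control replicate 1, any CAOV3 ascites replicate, or replicate 1 or 3 of either TOV21G group (log2 -0.30 to -0.23). The responses of LIPG and ACSL3 differed between lines by -0.26 and 0.02, with intervals of -0.53 to 0.01 and -0.12 to 0.17.

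Within groups, the same library was often the highest or the lowest for most of the 8 genes. Among the TOV21G controls replicate 1 was the highest for 8 of 8 genes and replicate 2 the lowest for 8 of 8, and among its ascites libraries replicate 2 was the highest for 7 and replicate 3 the lowest for 6. In CAOV3 ascites replicate 2 was the lowest of its group for 7 of the 8, control replicate 1 was the lowest of its group for 4, and control replicate 3 was the highest for 5 and ascites replicate 3 for 4. The TOV21G ascites replicate 2 library also had the highest mitochondrial share of that line, 2.71%. Leaving out TOV21G control replicate 1 and ascites replicate 2 together changed the call of none of the 8 genes within either line.

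Untreated, the lines differed in all 8 genes, and not in one direction. CAOV3 had more CPT1A, HADHA, PLIN2, ACADM and ACADVL, and TOV21G had more ANGPTL4, CPT2 and PDK4. The largest of these differences was in CPT1A, at 8084 ± 77.9 in CAOV3 and 2587 ± 62.8 in TOV21G, 3.12-fold lower (log2 -1.64, SE 0.04, limma adjusted p = 1.98e-13). HADHA followed at 14499 ± 609 and 5880 ± 282 (log2 -1.30), then PLIN2 (-1.18), ACADM (-1.05) and ACADVL (-0.91). On the other side ANGPTL4 was 1.85-fold higher in TOV21G (log2 0.89, SE 0.06, adjusted p = 4.19e-09), CPT2 1.51-fold (0.60) and PDK4 1.27-fold (0.35, SE 0.10, adjusted p = 0.00552). The control libraries of the lines did not overlap for any of the 8, as for 82.6% of all genes.

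Per kilobase of exon, the order of the 8 levels differed between the untreated lines. In CAOV3 it ran from HADHA (3306 ± 139) and ACADVL (2802 ± 54.1) through CPT1A (1231 ± 11.9), PLIN2 (795 ± 15.3), ACADM (774 ± 40.3) and ANGPTL4 (324 ± 15.4) to CPT2 (66.7 ± 4.45) and PDK4 (61.4 ± 8.63). In TOV21G ACADVL (1495 ± 55.5) and HADHA (1341 ± 64.3) again led, and ANGPTL4 (599 ± 35.4) came next, ahead of CPT1A (394 ± 9.56), ACADM (372 ± 18.3), PLIN2 (353 ± 36.2), CPT2 (101 ± 6.18) and PDK4 (77.5 ± 3.79). PLIN2 and ACADM were within their spread of each other in both lines, as were CPT2 and PDK4 in CAOV3 and CPT1A and ACADM in TOV21G. After ascites the order was the same in CAOV3, and in TOV21G only PLIN2 and ACADM changed places.

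**Figure D4:**
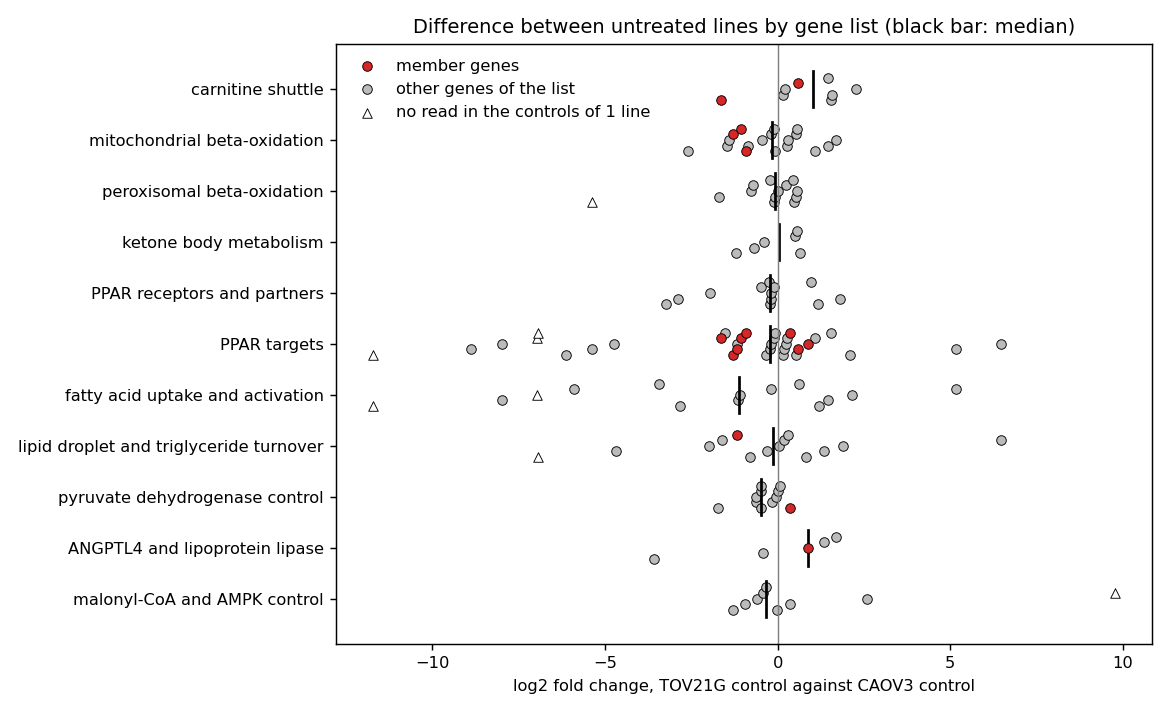
Log2 fold change of TOV21G control against CAOV3 control (horizontal axis) for the tested genes of 11 lists; each point is a gene, red points are the 8 genes, black bars the list medians, and triangles are genes without a read in the controls of 1 line, whose position depends on the pseudocount. The red points run from -1.64 (CPT1A) to 0.89 (ANGPTL4), within lists that spread to both sides of 0.

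CPT1A went against its own list. Of the 8 carnitine shuttle genes tested, 5 were higher in TOV21G (CPT2, CPT1B, CRAT, CROT and SLC22A5) and CPT1A was the 1 called lower. Their median log2 difference was 1.03, against -0.02 over all genes. In this comparison of controls 40.8% of all genes were called higher and 41.4% lower. CPT1B (log2 2.26, SE 0.62) had a mean under 50 in both control groups and overlaps CHKB-CPT1B on the same strand, so its count is uncertain. SLC22A5, the cell's carnitine importer, stood at 312 ± 25.1 in CAOV3 and 909 ± 41.6 in TOV21G, and CROT, the peroxisomal carnitine transferase, at 275 ± 33.2 and 822 ± 24.2. In mitochondrial beta-oxidation 7 of 18 were higher and 10 lower in TOV21G, and the short-chain dehydrogenase ACADS was 6.06-fold lower (534 ± 3.7 and 87.2 ± 1.37, log2 -2.60). HADHB was lower along with HADHA (-0.85). ACADSB, which acts on short branched chains, was higher instead (718 ± 48.1 and 1961 ± 108).

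The receptors differed as well. TOV21G had more PPARA (820 ± 29.7 against 234 ± 2.4, log2 1.81) and PPARD (786 ± 37.3 against 404 ± 17.6, log2 0.96), and CAOV3 had more PPARG (3229 ± 123 against 839 ± 52.6, log2 -1.94). The coactivators PPARGC1A (164 ± 16.9 and 17.1 ± 6.15) and PPARGC1B (1319 ± 22.7 and 180 ± 30.9), which drive mitochondrial gene programmes, were lower in TOV21G by 3.24 and 2.88 on the log2 scale. Altogether 3 of 12 were called higher and 9 lower, where 40.8% and 41.4% of all genes were.

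Of 33 PPAR targets 12 were higher in TOV21G and 18 lower, where 40.8% and 41.4% of all genes were. Some differed by very large margins. FABP4, a fatty acid carrier of fat cells, had 3344 ± 178 in CAOV3 controls and no read in TOV21G, at least 1104-fold lower when 3 reads per library are taken as the floor. CIDEC, a lipid droplet fusion protein, was at least 40.6-fold lower by the same floor (123 ± 19.8 in CAOV3). ADIPOQ, LEP and CIDEA, defining markers of fat cells, were not among the listed genes. PLIN1, another fat cell marker, was low in both lines, at 3.22 ± 1.21 in CAOV3 controls and 8.84 ± 2.25 in TOV21G controls. In the other direction ACSL1, which activates fatty acids, had 162 ± 21.1 in CAOV3 and 5777 ± 153 in TOV21G, and G0S2, an inhibitor of triglyceride lipase, 8.5 ± 3.87 and 793 ± 47.2. The energy sensor subunit PRKAA2 had no read in CAOV3 controls and 880 ± 80.6 in TOV21G, at least 275-fold higher.

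Transcripts whose pattern was closest to that of each gene were sought among 10285 genes with a mean of at least 100 in each line, by Pearson's r of log2 values centred on the line mean over the 12 libraries. For ANGPTL4 these were IFITM3 (0.977), an interferon-induced membrane protein, AREG (0.974), an EGF family ligand, and SOCS3 (0.971), a feedback inhibitor of cytokine signalling. The closest to PLIN2 was TNFAIP1 (0.968), to CPT1A NFKB1 (0.954), to CPT2 GBE1 (0.967) and to PDK4 RAB8B (0.927). UTP18 (0.960) was closest to ACADM, AXIN1 (0.920) to ACADVL and PGD (0.975) to HADHA. None of the top 3 of any of the 8 was another of the 8. Among themselves the closest pair was ACADM and ACADVL (0.833), and ANGPTL4 was closest to PLIN2 (0.680). The points share libraries, scaling and, in 6 of the 12, the treatment, so these values describe the libraries only.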

How the data were processed

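Sequencing reads were processed by the authors with Trim Galore, cutadapt, STAR, HTSeq and DESeq, per the submitters' processing notes, which give no versions; the genome build and strandedness are not given in the sources used here. The authors deposited a normalised read count, a signal of 0 or more, per gene and library. From the values, 100% were whole multiples of 1 step per library within 0.001 reads (largest deviation 5.75e-05), so whole reads were recovered by division. Totals were 26697609 to 34491304 reads per library. Symbols for 19087 genes came from the gene name table, for 136 from GENCODE release 29, and 28 had none.

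The main test was limma 3.58.1 in R 4.3.3 (lmFit, eBayes with trend) on log2(value + 1), all 12 libraries in 1 fit with a mean per group, genes with a value of at least 10 in at least 3 libraries, two-sided p-values adjusted by Benjamini-Hochberg within each contrast. Contrasts were ascites against control in each line, the difference of these responses (TOV21G minus CAOV3), and TOV21G against CAOV3 controls. Alternatives were edgeR 4.0.16 (quasi-likelihood) and DESeq2 1.42.0 on recovered reads, TMM scaling, pseudocounts of 0.5 and 5, no filter or a value of at least 50, each line alone, a replicate block, removal of length and GC trends, and each library left out. A further alternative, TOV21G control replicate 1 and ascites replicate 2 both left out, was chosen after seeing the data. The fit was tested on simulated data.

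The 8 members and 14 lists (152 symbols, 139 in the files, 136 tested) were chosen with earlier results of these data known; 2 further genes of the lists are not reported here and are left out of all list counts. Text names the 8 members, PPARA, PPARD, PPARG and HADHB throughout, up to 12 other called list genes per contrast by adjusted p, and at baseline up to 2 called rises and 2 falls per list with a mean of at least 50 in the higher group, of which a part is printed. CPT1B, CRAT, SLC2A1, AQP3, FABP1 and PLIN1, and genes absent from the files, were named after their values were seen.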

Additional observations from a re-analysis of the deposited data

Results flagged for a closer look

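In 4 genes the response to ascites differed between the lines by the limma test of the difference itself (TOV21G response minus CAOV3 response, log2 scale). ANGPTL4 differed by -0.54 (SE 0.08, adjusted p = 0.0104), with 3 of 3 ascites libraries above the controls in CAOV3 and overlapping groups in TOV21G. VEGFA differed by -0.37 (SE 0.05, adjusted p = 0.0093): in CAOV3 its ascites libraries were all above the controls, and in TOV21G, where the change of -0.18 was not called (adjusted p = 0.0813), all were below (5973 ± 36.3 and 5273 ± 180). PLIN3 differed by -0.38 (SE 0.07, adjusted p = 0.0394). TXNIP, a glucose-responsive inhibitor of glucose uptake listed among the PPAR targets, differed by -0.36 (SE 0.07, adjusted p = 0.049): its groups did not overlap in either line and lay in opposite directions (1110 ± 31.5 to 1238 ± 41.8 in CAOV3, 1269 ± 41.7 to 1103 ± 69.8 in TOV21G), with neither change called in the main fit. With CAOV3 fitted alone, limma called TXNIP higher in that line (log2 0.16, adjusted p = 0.0392). TXNIP lost the call of the difference between lines in 11 of the 12 fits that each left out 1 library, the exception being without TOV21G ascites replicate 2. It also lost that call with a pseudocount of 0.5, without the filter and under the replicate block. The groups of 3 libraries are too small for a test of single outlying libraries.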

How the results depend on the processing

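Of the 8 members, ANGPTL4 in CAOV3 and all 8 differences between untreated lines kept direction and call in every alternative. The number of genes called in CAOV3, 305, was 511 with edgeR, 507 with DESeq2, 1295 with the line fitted alone, 116 with a replicate block, 614 with both TOV21G libraries left out, and 172 to 344 with 1 library left out. In TOV21G 72 became 114, 150, 22 and 13 with edgeR, DESeq2, the line alone and the block, and 24 to 136 with 1 library left out. The 96 genes that differed between responses became 148 with edgeR, 212 with DESeq2, 151 with TMM scaling, 156 with length and GC trends removed, 9 with the block, 178 with both libraries left out, and 40 to 146 with 1 library left out. Among the members 2 were called in CAOV3 with the line alone, and 0 differed between responses under the replicate block. Of the other list genes, 7 in CAOV3 became 21 with the line alone, 0 with the block, 13 with both libraries left out and 3 to 8 with 1 left out; 2 in TOV21G became 4 with DESeq2, 0 with the line alone, 0 with the block, 5 with both left out and 1 to 5 with 1 left out; 3 between responses became 0 with the block and 1 to 3 with 1 left out. Deviations of same-numbered control and ascites libraries correlated at -0.07, 0.06 and 0.01 in CAOV3 and -0.16, -0.42 and 0.07 in TOV21G over 11886 genes. Among libraries with unlike numbers the largest value was 0.46, for TOV21G control replicate 1 and ascites replicate 2. These correlations cannot settle whether the libraries were paired. Under the block ANGPTL4 (interaction), TXNIP (interaction), MGLL, ACSL3, PLIN3, LIPG, VEGFA, ACACB and PDP1 lost their calls. Length and GC trend removal ended the calls of LIPG and ACACB in CAOV3. Signs reversed only in uncalled values near 0. In TOV21G these were ANGPTL4 (0.0121 with length and GC trends removed), ACADM (0.0171 with edgeR and 0.0165 with TMM; -0.0607 to 0.0285 with 1 library left out), ACADVL (-0.0308 with both left out; -0.0563 to 0.0546) and PPARG (-0.0242 to 0.0624). In CAOV3 they were ACADVL (-0.0104 to 0.0400), HADHA (-0.0503 to 0.0063) and HADHB (-0.0104 to 0.00842), and in the difference of responses CPT2 (-0.0128 to 0.0847) and ACADVL (0.0264 with edgeR, 0.00223 with DESeq2, 0.0248 with TMM, 0.0493 with trends removed; -0.0703 to 0.0406). The causes were not tested. Genes without length or GC, 25 of those tested, were left out of the trend correction.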
